A study of Mus musculus with 15 samples.

Results

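Pericytes are the mural cells that wrap capillaries and small vessels, and 8 genes commonly used to mark them were followed through mouse palate development. They were the receptors *Pdgfrb* and *Notch3*, the surface proteoglycan gene *Cspg4*, the signalling regulator *Rgs5*, the potassium channel genes *Kcnj8* and *Abcc9*, and 2 genes of mitochondrial proteins, *Higd1b* and *Ndufa4l2*. The genes were chosen by name. *Higd1b* was put among them from these same libraries, and is treated below as chosen on its rise between E13.5 and E14.5. The step from E13.5 to E14.5 is thus given as a description with no test. That step of choice was inferred, and results of later stages may also have been known. The other 7 were listed with results of these data known. All 8 were found among the 54232 genes of the count table, and all 8 passed the filter on low counts that left 22151 genes for testing.

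The tissue was the secondary palate, the shelf that comes to part the mouth from the nasal cavity, of mice labelled WT. Palatal shelves were dissected on the day of birth (P0) and on 4 earlier days of gestation, named E13.5, E14.5, E15.5 and E16.5 for the embryonic day, with no agent or other allele named for any stage. There were 3 libraries per stage, 15 in all, and 3 embryos were pooled for each. The p-values below therefore measure the spread between pools.

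Reads were assigned to genes on the mm10 assembly (GRCm38), and positions are 1-based. *Pdgfrb* (ENSMUSG00000024620.11) lies on chromosome 18 from 61045150 to 61085061, *Notch3* (ENSMUSG00000038146.7) on chromosome 17 from 32120820 to 32166880 and *Cspg4* (ENSMUSG00000032911.6) on chromosome 9 from 56865033 to 56899870. *Rgs5* (ENSMUSG00000026678.10) lies on chromosome 1 from 169655501 to 169695813, *Higd1b* (ENSMUSG00000020928.14) on chromosome 11 from 102835849 to 102838040, and *Ndufa4l2* (ENSMUSG00000040280.10) on chromosome 10 from 127514967 to 127517154. The channel genes are neighbours on the minus strand of chromosome 6. *Abcc9* (ENSMUSG00000030249.15) spans 142587862 to 142702315 and *Kcnj8* (ENSMUSG00000030247.9) spans 142564837 to 142571614, with 16247 bases and 0 annotated genes between them. Genes that overlap a member lay only on the opposite strand, namely 5330439B14Rik at *Abcc9*, Gm17276 at *Notch3* and *Shmt2* at *Ndufa4l2*, and fragments were counted by strand.

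Pericytes lie within the capillary basement membrane. Endothelial cells release PDGF-B, which recruits pericytes through the receptor encoded by *Pdgfrb*, and Notch ligands on endothelium signal to NOTCH3 on mural cells. *Kcnj8* encodes the pore and *Abcc9* the regulatory subunit of the ATP-sensitive potassium channel of vascular cells, which couples the metabolic state of the cell to vessel tone. *Pdgfrb* and *Cspg4* are also made by mesenchymal cells outside vessels, and *Notch3* also by smooth muscle of arteries.

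Promoters are shown for *Rgs5* and *Kcnj8*, which rose across development, and for *Notch3*, which fell. Those of *Abcc9* and *Cspg4*, which rose as well, are described without their letters. RefSeq promoter sequence (GRCm38.p6) was matched for 5 of the 8 members, and not for *Higd1b*, *Pdgfrb* and *Ndufa4l2*. Each line gives the 250 bases before the annotated start, 5′ to 3′ on the strand of the gene, with every GC box (GGGCGG, searched on both strands) in capitals.
Rgs5 (chr1:169655251-169655500, plus strand): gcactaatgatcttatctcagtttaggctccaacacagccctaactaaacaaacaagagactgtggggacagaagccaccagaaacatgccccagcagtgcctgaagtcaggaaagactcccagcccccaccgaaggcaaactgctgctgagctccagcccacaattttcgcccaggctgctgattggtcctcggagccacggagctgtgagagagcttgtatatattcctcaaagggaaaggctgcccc
Kcnj8 (chr6:142571615-142571864, minus strand): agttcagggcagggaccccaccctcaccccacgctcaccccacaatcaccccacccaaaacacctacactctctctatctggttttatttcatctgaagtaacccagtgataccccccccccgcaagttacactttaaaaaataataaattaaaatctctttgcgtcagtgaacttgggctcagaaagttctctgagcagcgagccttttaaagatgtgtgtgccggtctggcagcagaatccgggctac
Notch3 (chr17:32166891-32167140, minus strand): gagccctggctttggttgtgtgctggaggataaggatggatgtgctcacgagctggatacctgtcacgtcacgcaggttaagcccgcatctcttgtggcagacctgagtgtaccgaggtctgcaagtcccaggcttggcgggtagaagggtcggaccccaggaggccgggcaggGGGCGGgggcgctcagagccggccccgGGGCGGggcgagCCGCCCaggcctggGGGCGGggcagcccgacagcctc
The *Notch3* window held 4 GC boxes, while the windows of *Rgs5* and *Kcnj8* held 0. Such a match was present in 32.7% of 32851 RefSeq promoter windows of this length, in the *Abcc9* window once and in the *Cspg4* window at 2 places. *Abcc9* and *Cspg4* were also called higher at P0 than at E13.5, so GC boxes were found at genes of both directions. The GC content was 68.8% for *Notch3*, 66.8% for *Abcc9*, 60.4% for *Cspg4*, 53.6% for *Rgs5* and 49.2% for *Kcnj8*, beside a median of 52.4% over all windows. Of 4 further motifs searched on both strands, the RBPJ core TGGGAA was found only at *Abcc9* (21.6% of all windows) and the hypoxia element core ACGTG only at *Notch3* (16.6%). The E-box CANNTG was found at *Kcnj8* and *Abcc9* (66.2%), and the CArG box at none of the 5 (1.47%). These letters were not compared with any measure of factor binding.

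Depth ranged from 21.5 to 69.0 M counts per library, with a median of 61.0 M. The detection floor was set at 3 counts, which is 0.0435 to 0.140 CPM (counts scaled to a library total of 1 M) on unadjusted totals. Floors and count intervals cover counting error only. Levels below are CPM adjusted by the trimmed mean of M values, and a level divided by gene length is CPM per kb. Other tissues in the dissected palate also moved with stage. The summed level of 8 skeletal muscle genes lay at 79.2 to 159 CPM per kb at E13.5 and at 3090 to 17240 at P0, and that of 6 cartilage genes at 147 to 392 and 51.4 to 158. Of the skeletal muscle genes 6 were called higher at P0 than at E13.5 and 0 lower, of the cartilage genes 1 and 2, of 8 fibroblast and mesenchyme genes 4 and 4, of 6 Schwann cell and glial genes 4 and 0, of 6 epithelial genes 4 and 0, and of 5 sex-linked genes 0 and 0. In the same comparison 29.8% of all genes were called higher and 26.8% lower. Of all list genes *Higd1c* was the only one at 0 in every library of a stage. The Y-linked genes *Ddx3y*, *Eif2s3y*, *Kdm5d* and *Uty* were at or below 0.166 CPM in all 3 E16.5 libraries and above 6 CPM in at least 2 libraries of every other stage, so sex and stage cannot be told apart in comparisons with E16.5.

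**Figure D1:**
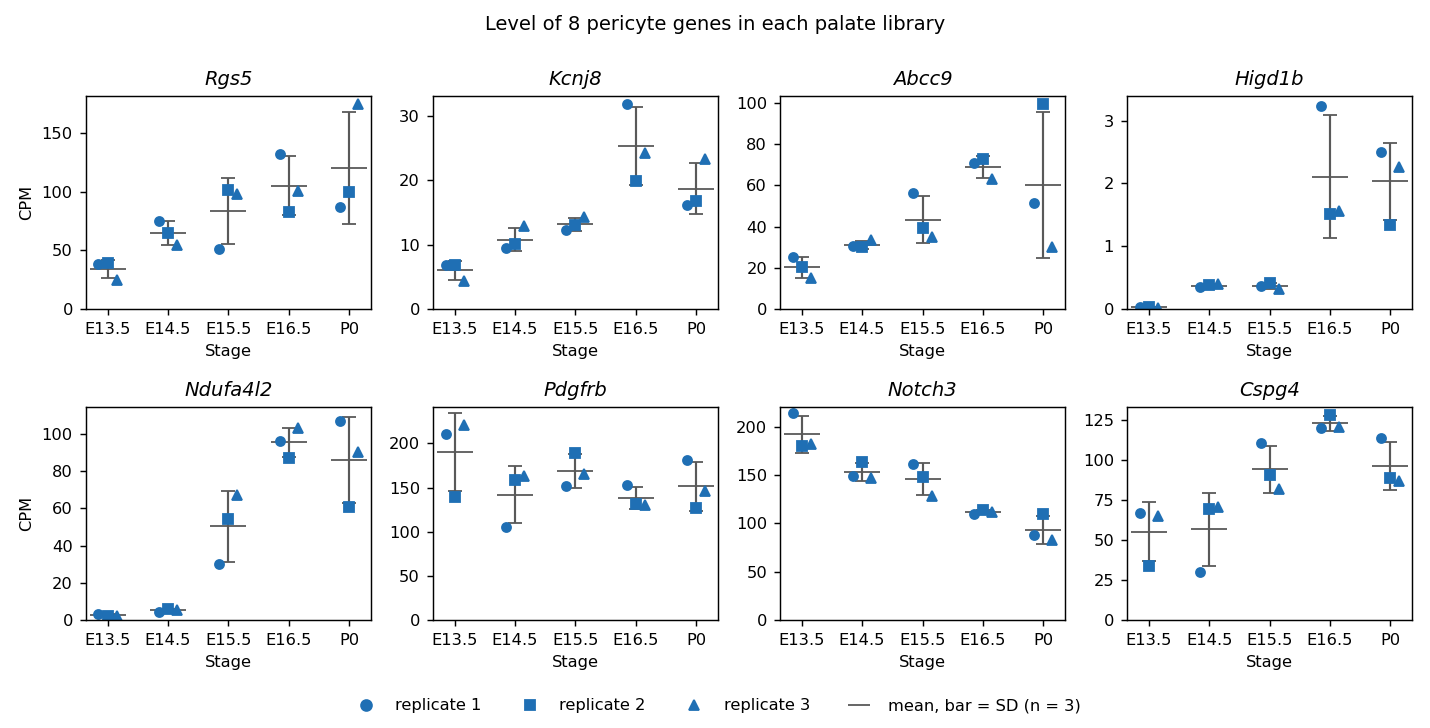
Level of each pericyte gene in CPM (y axis, linear from 0, own scale per panel) in the 3 libraries of each stage (x axis), with points for libraries, a dash for the mean and a bar for the SD. *Higd1b* and *Ndufa4l2* start near 0 at E13.5, *Notch3* is highest at E13.5 and lowest at P0, and the *Pdgfrb* libraries of all stages overlap.

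Among the receptors, *Pdgfrb*, which receives PDGF-B and marks mural cells and mesenchyme, had the narrowest range of stage means of the 8 genes. It stood at 211, 140 and 221 CPM in E13.5 replicates 1 to 3 and at 105, 158 and 163 CPM at E14.5. At E15.5 it stood at 152, 190 and 165 CPM, at E16.5 at 153, 131 and 131 CPM, and at P0 at 181, 127 and 146 CPM. Each pair of neighbours in the order of stage means overlapped, and the highest mean, 191 ± 44.2 CPM at E13.5 (SD, n = 3), was 1.38 times the lowest, 138 ± 12.6 CPM at E16.5. *Pdgfrb* passed the test in none of the 5 comparisons. Between E13.5 and P0 its log2 fold change was −0.33 (standard error 0.21, adjusted p = 0.185 in edgeR's quasi-likelihood test). Without E13.5 replicate 2 that change was −0.52 with an adjusted p of 0.0488, and E13.5 replicate 2 was also the E13.5 library with the lowest cartilage sum, 147 against 332 and 392 CPM per kb. The same library had the lowest sum of 14 endothelial genes at E13.5, 128 against 171 and 172 CPM per kb.

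*Notch3*, the mural cell receptor of the Notch family, was the member that fell. The E13.5 libraries held 214, 180 and 182 CPM, those of E14.5 held 149, 164 and 147 CPM, and those of E15.5 held 162, 148 and 128 CPM. The E16.5 libraries held 110, 114 and 112 CPM and the P0 libraries 88.5, 110 and 82.6 CPM. All 3 libraries of E16.5 and of P0 lay below all 9 earlier ones. The mean went from 192 ± 18.9 CPM at E13.5 to 93.7 ± 14.4 CPM at P0. From E15.5 to P0 *Notch3* fell by 0.64 on the log2 scale (standard error 0.13, edgeR adjusted p = 0.00574), and its adjusted p was 0.0559 when the fit held only the 6 libraries of the comparison.

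*Cspg4*, the gene of a large chondroitin sulfate proteoglycan on pericytes and other immature cells, was spread widely at the first stages. It stood at 66.9, 34.0 and 65.1 CPM at E13.5 and at 30.3, 69.3 and 70.7 CPM at E14.5, so that 1 library of each stage stood well below the others. The later libraries held 110, 90.5 and 81.8 CPM at E15.5, 120.1, 128 and 120.5 CPM at E16.5 and 114, 88.7 and 87.0 CPM at P0. The low libraries, E13.5 replicate 2 and E14.5 replicate 1, were the lowest of their stage in *Pdgfrb* and in the cartilage sum too, the latter with 60.4 CPM per kb against 305 and 398. Both were also the lowest of their stage in the endothelial, smooth muscle, and fibroblast and mesenchyme sums. The endothelial sum of E14.5 replicate 1 was 126 CPM per kb against 161 and 163. The part of cartilage, other mesenchyme or vessels in the level of *Cspg4* and *Pdgfrb* was not tested.

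*Rgs5*, which encodes a regulator that shortens G-protein signals and is among the most used pericyte markers, climbed over the course. The E13.5 libraries held 38.2, 39.3 and 25.1 CPM, those of E14.5 held 75.4, 64.7 and 54.8 CPM, and those of E15.5 held 51.2, 102 and 97.8 CPM. The E16.5 libraries held 132, 83.0 and 101 CPM and the P0 libraries 86.6, 99.4 and 174 CPM. E13.5 lay below every later library, while each later stage overlapped the next. The highest P0 value came from replicate 3, the P0 library with the lowest skeletal muscle sum, 3090 CPM per kb against 14484 and 17240. Replicate 3 was also the shallowest library, at 21.5 M counts. Its endothelial sum was the lowest of P0 (211 CPM per kb against 275 and 264) and its epithelial sum the highest (1178 against 387 and 640). None of these was tested as a source of the *Rgs5* value.

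*Kcnj8*, the pore of the vascular channel, had a similar course to *Rgs5* at a lower level, with its highest mean at E16.5. It held 6.82, 6.85 and 4.37 CPM at E13.5, 9.41, 10.1 and 12.9 CPM at E14.5 and 12.3, 13.03 and 14.2 CPM at E15.5. It held 31.7, 19.9 and 24.3 CPM at E16.5 and 16.1, 16.7 and 23.3 CPM at P0. The libraries of E16.5 and P0 overlapped, and all 6 lay above the 9 earlier ones.

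*Abcc9*, its partner subunit, held 25.2, 20.7 and 15.1 CPM at E13.5, 30.4, 29.9 and 33.4 CPM at E14.5 and 56.2, 39.2 and 34.8 CPM at E15.5. It held 71.1, 72.6 and 63.1 CPM at E16.5 and 51.4, 99.3 and 30.1 CPM at P0. The P0 libraries spanned more than all others of this gene, with an SD of 35.5 CPM on a mean of 60.3. *Abcc9* is also expressed in skeletal muscle, and its highest P0 value was in replicate 2, with the highest muscle sum, and its lowest in replicate 3, with the lowest. At E16.5 the muscle sums of replicates 1 to 3 were 18558, 7632 and 5805 CPM per kb, and the *Abcc9* levels given above did not keep that order. The part of skeletal muscle in the level of *Abcc9* was not tested. Per kb, the channel genes ran near each other. *Kcnj8* and *Abcc9* stood at 2.36 ± 0.559 and 2.43 ± 0.605 CPM per kb at E13.5 and at 7.34 ± 1.57 and 7.20 ± 4.23 at P0, and their libraries overlapped at every stage.

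*Higd1b*, a HIG1-domain gene that single-cell studies have used to mark pericytes, was barely detected at E13.5. Its raw counts there were 2, 3 and 1, at or under the floor of 3 counts per library. They were 23, 25 and 28 at E14.5, 22, 28 and 22 at E15.5, 150, 55 and 64 at E16.5 and 90, 44 and 52 at P0. In CPM the libraries stood at 0.358 to 0.393 at E14.5, 0.318 to 0.417 at E15.5, 1.52 to 3.24 at E16.5 and 1.34 to 2.50 at P0. The gene thus had 3 separate levels, a trace at E13.5, a low level over E14.5 and E15.5 whose libraries overlapped, and a higher one over E16.5 and P0 whose libraries overlapped as well. Against E13.5 no bound of a fitted fold was used. The ratio of summed counts, scaled for depth, has an interval that covers counting error alone and is no test, since the E13.5 counts are among the values *Higd1b* was chosen on. It was 13.1 at E14.5 (76 against 6 counts, exact 95% interval 5.74 to 36.8) and 70.2 at P0 (186 against 6 counts, 31.7 to 194).

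*Ndufa4l2*, a relative of the respiratory chain subunit gene *Ndufa4* that is known as a hypoxia-inducible gene, had its steepest step between E14.5 and E15.5. It held 3.58, 2.42 and 2.48 CPM at E13.5 and 4.66, 6.21 and 5.58 CPM at E14.5, then 30.0, 54.1 and 67.3 CPM at E15.5. The E16.5 libraries held 95.8, 87.1 and 103 CPM and those of P0 107, 60.7 and 90.2 CPM. Every library from E15.5 on held more than 4 times the level of any E14.5 library. E15.5 replicate 1 was the lowest of its stage for both *Ndufa4l2* and *Rgs5*. It had the highest skeletal muscle sum of E15.5, 1876 CPM per kb against 1102 and 714. Its epithelial sum was the lowest (173 against 452 and 712) and its endothelial sum the highest (200 against 192 and 182). At E16.5 replicate 1 had the highest muscle sum, 18558 CPM per kb, and also the highest *Rgs5* level, 132 CPM. None of these sums was tested as a source of the *Ndufa4l2* or *Rgs5* values.

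The order of the members by level per kb changed with stage. At E13.5 *Pdgfrb* led with 34.8 ± 8.06 CPM per kb, followed by *Notch3* with 23.9 ± 2.35, whose libraries overlapped those of *Pdgfrb*, and *Rgs5* with 7.52 ± 1.74. *Cspg4*, *Ndufa4l2*, *Abcc9* and *Kcnj8* came next between 4.64 and 2.36 with overlapping neighbours, and *Higd1b* stood last at 0.0338. At P0 *Ndufa4l2* led with 78.4 ± 21.2 CPM per kb, above all libraries of *Pdgfrb* (27.6 ± 5.04) and *Rgs5* (26.4 ± 10.4), which overlapped. *Notch3* (11.6 ± 1.80), *Cspg4* (8.09 ± 1.26), *Kcnj8* and *Abcc9* followed, and *Higd1b* was last again with 2.40 ± 0.721. The highest stage mean in CPM was 33.7 times the lowest for *Ndufa4l2*, 4.21 for *Kcnj8*, 3.51 for *Rgs5*, 3.39 for *Abcc9*, 2.22 for *Cspg4*, 2.05 for *Notch3* and 1.38 for *Pdgfrb*. *Higd1b* is left out of this order, since its lowest mean rests on 6 counts.

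The step from E13.5 to E14.5, when the shelves rise and meet, is described without a test because *Higd1b* was chosen on it. The E14.5 mean was 1.90 times that of E13.5 for *Rgs5*, 1.79 for *Kcnj8*, 1.53 for *Abcc9* and 1.94 for *Ndufa4l2*, each without overlap between the stages. For *Notch3* it was 0.798 times, also without overlap. *Cspg4*, at 1.03 times, and *Pdgfrb*, at 0.745 times, overlapped. Nothing about the 8 genes as a group is read from this step.

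Stages were then compared with edgeR's quasi-likelihood test over all 22151 genes, with Benjamini-Hochberg adjustment and a threshold of 0.05. E15.5 against E14.5 addressed the time around fusion of the shelves, and it shares the E14.5 libraries with the step just described. *Ndufa4l2* rose by 3.20 on the log2 scale (standard error 0.30, adjusted p = 0.000141), the only member called. That is 1 of 8 higher and 0 lower, where 12.7% of all genes were called higher and 13.4% lower, so the share of members called was near the background. With upper-quartile scaling, the median change over all genes was 0.16 in place of 0.03, with 3424 rises and 2007 falls in place of 2803 and 2970, and *Ndufa4l2* remained the only member called. The change of *Cspg4* was 0.73 (standard error 0.30, adjusted p = 0.0911), and those of *Rgs5*, *Kcnj8*, *Abcc9* and *Pdgfrb* lay between 0.25 and 0.48 with adjusted p from 0.313 to 0.407. *Higd1b* differed by −0.03 and *Notch3* by −0.07. The median over the 8 genes was 0.33.

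E16.5 against E15.5 asked what followed fusion, in libraries other than those of the step from E13.5 to E14.5. Since the members were listed with results of these data known, calls in this comparison may not be independent of that choice. *Higd1b* was the only member called, with a rise of 2.51 (standard error 0.36, adjusted p = 0.0224), from 0.369 ± 0.0496 to 2.11 ± 0.978 CPM (n = 3 each). All 3 E16.5 libraries were above all 3 E15.5 libraries. The background was 1.03% of genes called higher and 0.379% lower. The call was lost on leaving out E15.5 replicate 2 (adjusted p = 0.133), E15.5 replicate 3 (0.0776) or E16.5 replicate 1 (0.0567) and in a fit to only the 6 libraries (0.106), while the log2 change stayed between 2.05 and 2.70 when any 1 library was left out. E16.5 replicate 1 had the highest *Higd1b* level and the highest endothelial sum of its stage, 328 CPM per kb against 187 and 188. Its skeletal muscle sum (18558 against 7632 and 5805) and cartilage sum (209 against 55.4 and 71.9) were the highest too. Its epithelial sum was the lowest (328 against 490 and 857). None of these was tested as a source of the *Higd1b* value. *Kcnj8* differed by 0.94 (standard error 0.23, adjusted p = 0.0641), *Ndufa4l2* by 0.92 (0.28, 0.0977) and *Notch3* by −0.38 (0.13, 0.117). DESeq2 called the first pair as well, with adjusted p of 0.00341 and 0.0246. The median over the 8 genes was 0.53, beside 0.00 over all genes.

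Between E16.5 and P0 no member was called higher, where 0.19% of all genes were, and none lower, where 0.163% were. In edgeR 0 of 8 had an unadjusted p under 0.05, and DESeq2 called 0 as well. The largest difference was in *Kcnj8*, −0.44 (standard error 0.23, adjusted p = 0.491), followed by *Cspg4* at −0.35 and *Notch3* at −0.26. With 3 libraries a stage these comparisons do not show that the levels were equal.

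P0 against E15.5 used the outer stages of the later course. *Higd1b* rose by 2.46 (standard error 0.36, adjusted p = 0.00161) and *Notch3* fell by 0.64, the values given above. These were 1 of 8 higher and 1 of 8 lower, where 12.2% of all genes were higher and 10.8% lower. *Ndufa4l2* differed by 0.77 (standard error 0.27, adjusted p = 0.0610), and passed on leaving out either E15.5 replicate 3 (0.0414) or P0 replicate 2 (0.0433) and in DESeq2 (0.0316). *Kcnj8* differed by 0.50 (adjusted p = 0.131), *Rgs5* by 0.52 (0.244) and *Abcc9* by 0.47 (0.332).

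P0 against E13.5 covered the whole course and shares the E13.5 libraries with the step on which *Higd1b* was chosen. Of the 8 genes 6 were called higher, where 29.8% of all genes were, and 1 was called lower, where 26.8% were. *Higd1b* is among the 6 through the E13.5 values it was chosen on, so its test is not given, and 5 of the other 7 were higher. The rises were 4.92 for *Ndufa4l2* (standard error 0.32, adjusted p = 1.64e-06), 1.81 for *Rgs5* (0.32, 0.000483), 1.64 for *Kcnj8* (0.24, 0.000115), 1.57 for *Abcc9* (0.34, 0.00205) and 0.80 for *Cspg4* (0.30, 0.0378). *Notch3* fell by 1.03 (standard error 0.13, adjusted p = 3.88e-05). *Cspg4* no longer passed without E13.5 replicate 2 (0.54, adjusted p = 0.148), without P0 replicate 1 (0.105) or without P0 replicate 2 (0.0535). The median over the 8 genes, with *Higd1b* included, was 1.60, beside 0.03 over all genes. It is a description only, since the members were listed with results of these data known.

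**Figure D2:**
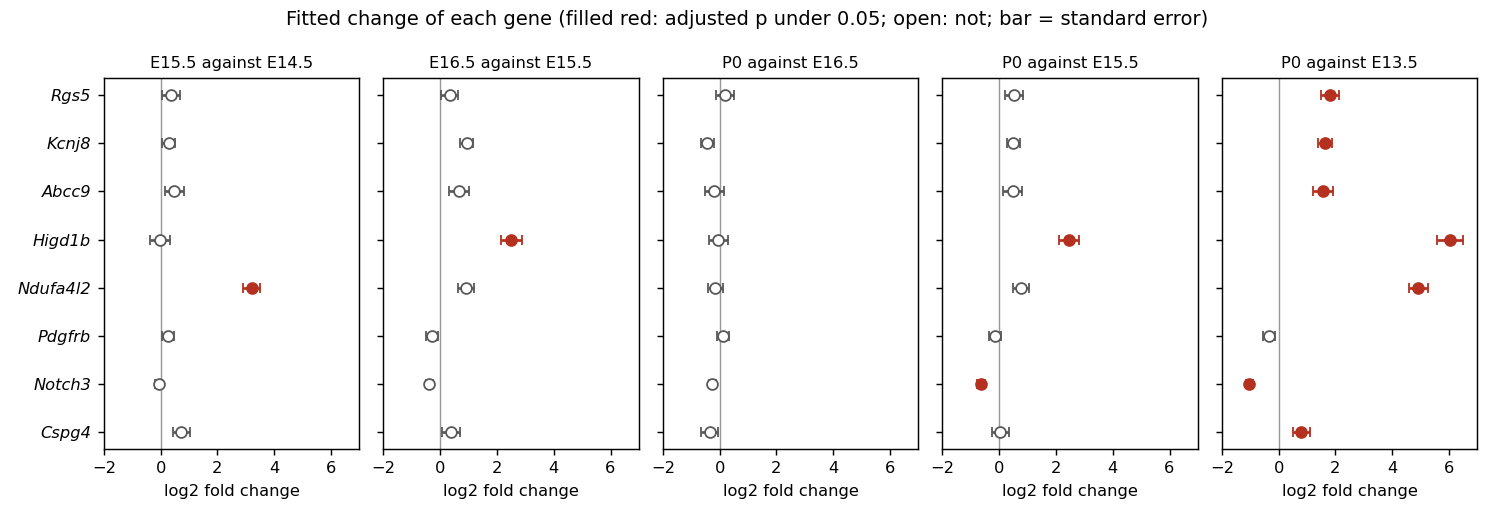
Fitted log2 fold change (x axis, later against earlier stage) of each pericyte gene (y axis) in the 5 comparisons, with bars of 1 standard error, filled red where the adjusted p was under 0.05. Filled points are *Ndufa4l2* at E15.5 against E14.5, *Higd1b* at E16.5 against E15.5, none at P0 against E16.5, *Higd1b* and *Notch3* at P0 against E15.5, and all but *Pdgfrb* at P0 against E13.5. The *Higd1b* point at P0 against E13.5 rests on the E13.5 values the gene was chosen on, so neither its fill nor its bar is read as a test.

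The genes were next set beside the endothelium that pericytes cover. In bulk tissue a change in the number of cells of a type and a change in RNA per cell cannot be told apart. The summed level of 14 endothelial genes lay at 128 to 172 CPM per kb at E13.5, 126 to 163 at E14.5, 182 to 200 at E15.5, 187 to 328 at E16.5 and 211 to 275 at P0. Of these genes 8 were higher and 1 lower at P0 than at E13.5, with a median log2 change of 0.66. The background for this count and for those of the lists below is 29.8% of all genes higher and 26.8% lower at P0 against E13.5, and 12.7% and 13.4% at E15.5 against E14.5. *Pecam1*, an adhesion molecule of endothelial junctions, went from 61.5 ± 8.11 to 146 ± 34.4 CPM (1.24, adjusted p = 0.00112), and *Egfl7*, a secreted endothelial protein, from 39.3 ± 7.01 to 84.6 ± 18.8 CPM (1.11, 0.00143).

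Taken as a percentage of the endothelial sum, the members did not move together. *Rgs5* stood at 4.96 ± 1.77% at E13.5 and then near a constant 9.79 ± 3.01, 9.70 ± 3.51, 10.1 ± 1.54 and 11.1 ± 6.14% (SD, n = 3). *Kcnj8* went from 1.56 ± 0.550% to 4.35 ± 0.674% at E16.5 and 3.04 ± 1.13% at P0, and *Abcc9* from 1.58 ± 0.466% to 3.75 ± 1.04% and 2.81 ± 1.48%. *Pdgfrb* dropped from 22.0 ± 1.84% to 11.1 ± 2.06% and *Notch3* from 15.4 ± 2.13% to 4.68 ± 0.612%. By their means, the receptors stood lower relative to endothelium at P0 than at E13.5, and *Rgs5* and the channel genes stood higher. *Higd1b* went from 0.0230 ± 0.0146% at E13.5 to 0.299 ± 0.0321% at E14.5, 0.227 ± 0.0255% at E15.5 and 1.04 ± 0.113% at E16.5. Within E16.5 its libraries, spread 1.52 to 3.24 in CPM, lay at 1.17, 0.956 and 0.990% on this scale. At P0 the *Higd1b* mean was 0.979 ± 0.343%. Its P0 replicates 1 to 3, spread 1.34 to 2.50 in CPM, lay at 1.07, 0.5997 and 1.27%. The libraries thus stood closer together on this scale than in CPM at E16.5, and not at P0. Sums of other lists were not used as a scale. *Ndufa4l2* went from 3.34 ± 0.196% at E14.5 to 24.4 ± 10.1% at E15.5 and 39.8 ± 12.02% at E16.5.

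**Figure D3:**
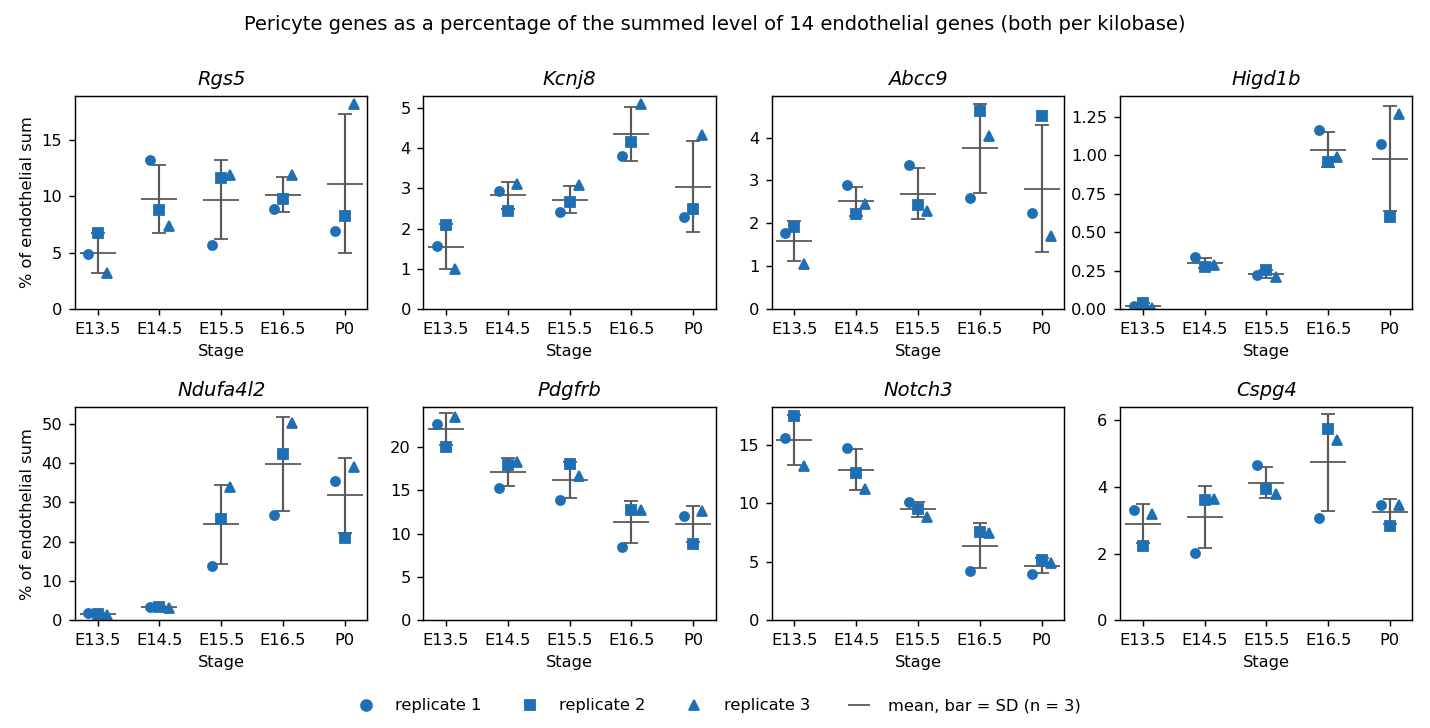
Level of each pericyte gene per kb as a percentage of the summed level of 14 endothelial genes (y axis, linear from 0, own scale per panel) by stage (x axis), with points for libraries and the mean with SD. *Pdgfrb* goes from 22.0% to 11.1% and *Notch3* from 15.4% to 4.68%. The 3 *Higd1b* points of E16.5 lie between 0.956% and 1.17%, and those of P0 between 0.5997% and 1.27%.

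Other mural genes were read from a list of 15. From E13.5 to P0, 7 rose and 3 fell, with a median of 0.44, where the background is 29.8% and 26.8%. *Steap4*, a metalloreductase gene of mural cells, went from 1.79 ± 0.361 to 41.0 ± 7.02 CPM (4.52, adjusted p = 5.59e-06). From E14.5 to E15.5, 3 rose and 1 fell (2 in DESeq2), beside a background of 12.7% and 13.4%. The rises were led by *Steap4* (1.96, adjusted p = 0.00325) and *Anpep*, an aminopeptidase of mural and other cells (1.34, 0.00415). From E15.5 to E16.5 and from E16.5 to P0 edgeR called 0 of 15, with 6 and 1 at an unadjusted p under 0.05. At P0 against E15.5, 2 were higher and 3 lower, where 12.2% of all genes were higher and 10.8% lower. Leaving out any 1 library gave 1 to 3 higher and 1 to 3 lower.

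Of 12 smooth muscle genes 11 rose between E13.5 and P0 and 0 fell, with a median of 2.35. *Myh11*, the smooth muscle myosin heavy chain, went from 2.94 ± 1.04 to 30.0 ± 4.68 CPM (3.35, adjusted p = 0.000363), and *Casq2*, a calcium store protein made in striated muscle as well, rose by 5.54 (8.34e-05). At E15.5 against E14.5, 5 of the 12 were higher and 0 lower, with 2 and 3 higher on leaving out replicate 1 or replicate 2 of E14.5, respectively, and 9 in DESeq2. The calls over all genes moved in the same settings, from 5773 to 2320, 3259 and 7208, respectively. The summed level of the list went from 99.3 to 146 CPM per kb at E13.5 to between 475 and 770 at P0. Of this sum *Casq2* alone made up 4.59 ± 1.62 CPM per kb at E13.5 and 214 ± 124 at P0. *Notch3*, a gene of smooth muscle too, fell over the same stages, and the part of smooth muscle in the levels of the other members was not tested.

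Among 10 ligands and receptors of pericyte recruitment, 5 rose and 3 fell from E13.5 to P0, with 1 falling without P0 replicate 1 and in a fit to only the 6 libraries. *Tgfb1*, the ligand that drives mural differentiation, rose by 2.36 (12.1 ± 2.95 to 62.0 ± 20.6 CPM, adjusted p = 5.10e-05), and *Angpt2*, the antagonist ligand of the Tie2 receptor, by 2.09 (5.91 ± 1.22 to 25.1 ± 7.04 CPM, 5.74e-05). *Pdgfb*, the ligand of the *Pdgfrb* receptor, was singled out after its values were seen. Its stage means were 14.8 ± 1.32, 17.3 ± 1.86, 24.4 ± 1.88, 42.3 ± 5.37 and 46.8 ± 5.95 CPM from E13.5 to P0. It was called higher at E15.5 against E14.5 (0.49, adjusted p = 0.0235), at E16.5 against E15.5 (0.79, 0.0284) and at P0 against E13.5 (1.66, 4.97e-06). At E16.5 against E15.5 edgeR called 0 of the 10 genes higher in a fit to only the 6 libraries, and 0 on leaving out any 1 library other than E16.5 replicate 3. *Angpt1*, the agonist of Tie2 made by mural and mesenchymal cells and also named after its values were seen, fell by 1.17 (adjusted p = 0.000864).

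The Notch targets were a list of 6, of which 0 rose and 2 fell from E13.5 to P0, where 26.8% of all genes fell. The number lower was 1 without E13.5 replicate 2, without P0 replicate 2 and with only the 6 libraries, and 1 target was higher without P0 replicate 3. *Hes5* went from 16.3 ± 18.7 to 1.47 ± 0.687 CPM (−3.48, adjusted p = 0.00312) and *Nrarp* from 32.6 ± 11.9 to 20.5 ± 1.80 CPM (−0.67, 0.0183). The E13.5 spread of *Hes5* exceeded its mean. *Heyl*, the target best known from mural cells and named after its values were seen, differed by 0.37 (adjusted p = 0.134) over the course. At E15.5 against E14.5 it differed by 0.63 (0.0391), a call lost with only the 6 libraries, with the replicate block and on leaving out any 1 library other than E14.5 replicate 3.

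Relatives of the members formed a list of 12, of which 11 were tested, 6 rose and 4 fell from E13.5 to P0. By the rule for naming, these were *Kcnj11*, the pore of the same channel type in muscle and endocrine cells (3.48 ± 0.929 to 18.3 ± 10.96 CPM, 2.40, adjusted p = 0.00147), and *Abcc8*, its usual endocrine partner (3.17 ± 0.896 to 7.85 ± 3.79 CPM, 1.31, 0.0230). The closest relatives of the mitochondrial members, singled out after their values were seen, had smaller log2 changes than the members. *Ndufa4* rose by 1.26 (118 ± 15.7 to 283 ± 91.0 CPM, adjusted p = 0.00213) and *Higd1a* by 1.06 (37.0 ± 2.53 to 77.2 ± 11.3 CPM, 0.000638). At E15.5 against E14.5, where *Ndufa4l2* rose by 3.20, *Ndufa4* differed by −0.00 and *Higd1a* by 0.11, and 0 of the 11 passed in edgeR with 1 at an unadjusted p under 0.05. These differences between relatives were not tested themselves.

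Because *Ndufa4l2* is hypoxia-inducible, 12 genes of the hypoxia response were read beside it. At E15.5 against E14.5, 2 of the 12 were higher and 0 lower, with 4 higher in a fit to only the 6 libraries. The rule for naming gave only *Ndrg1*, a stress-induced cytoplasmic protein gene (31.5 ± 4.75 to 116 ± 10.9 CPM, 1.88, adjusted p = 0.000154). From E13.5 to P0, 8 rose (5 without E13.5 replicate 2) and 2 fell (1 in a fit to only the 6 libraries). By the rule, *Ndrg1* stood at 2.58 (adjusted p = 2.40e-06) and *Egln3*, an oxygen-sensing hydroxylase gene, at 2.11 (12.6 ± 1.57 to 54.6 ± 32.6 CPM, 0.000661). The list and *Ndufa4l2* were not tied by any test.

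Pairs of members were compared by the correlation of log2 CPM, once over the 15 libraries, which share their stage, and once after the stage means were removed. These are descriptions with no p-value. Over the libraries the 28 correlations ran from −0.91 to 0.94 with a median of 0.53, and 17 were positive. Within stages they ran from −0.51 to 0.84 with a median of −0.02, and 14 were positive. *Kcnj8* and *Higd1b* stood at 0.94 over the libraries and 0.61 within stages, and *Rgs5* and *Kcnj8* at 0.89 and 0.66. *Kcnj8* and *Abcc9*, the subunits of 1 channel, stood at 0.79 and −0.14. *Pdgfrb* and *Cspg4* were the reverse, with 0.19 and 0.83, and *Abcc9* and *Notch3* had −0.59 and 0.84. *Rgs5*, *Kcnj8* and *Higd1b* thus stayed positive with each other within stages (0.40 to 0.66), which was not so for the channel subunits. *Ndufa4l2* was positive with each of them in both measures too. It stood at 0.84 and 0.46 with *Rgs5*, 0.88 and 0.32 with *Kcnj8*, and 0.86 and 0.25 with *Higd1b*.

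**Figure D4:**
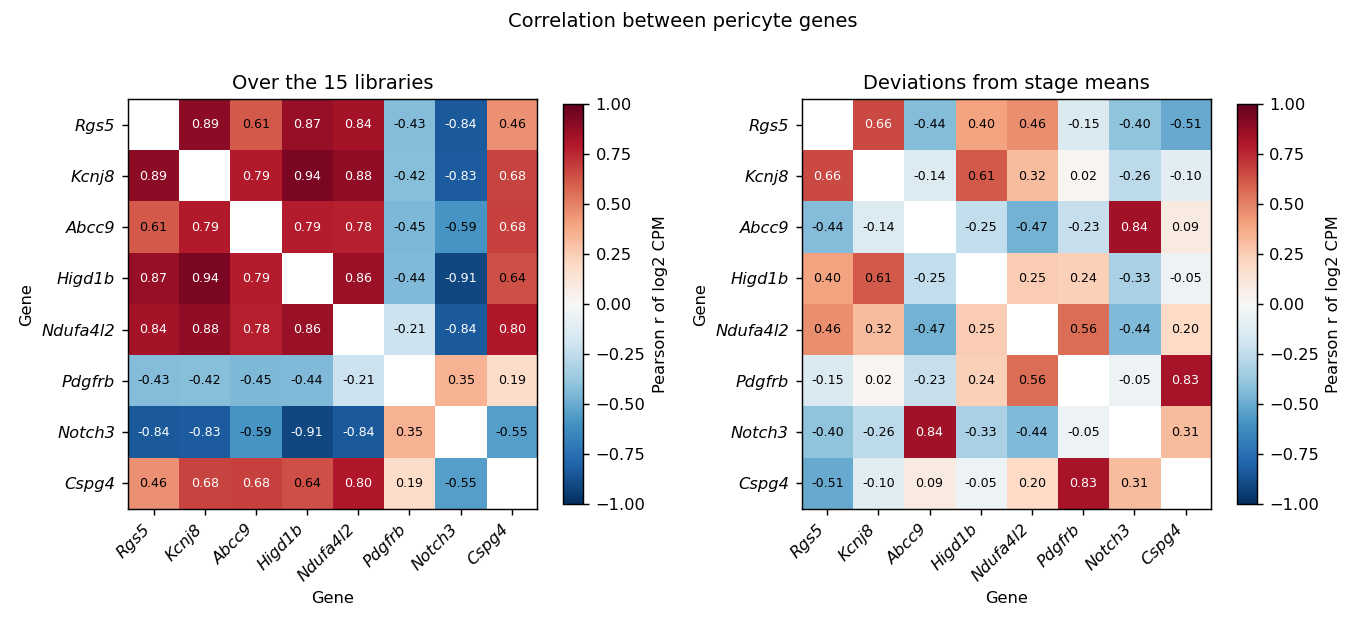
Pearson correlation of log2 CPM between each pair of pericyte genes (both axes), over the 15 libraries and, in the other panel, after removal of the stage means. *Rgs5*, *Kcnj8*, *Higd1b* and *Ndufa4l2* are positive with each other in both panels, while *Pdgfrb* and *Cspg4* stand at 0.19 over the libraries and 0.83 within stages.

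Within stages, *Pdgfrb* went with the cartilage sum at 0.91 and with the sum of 8 fibroblast and mesenchyme genes at 0.77, and *Cspg4* with these at 0.70 and 0.85. *Rgs5* stood at −0.09 and −0.53 with the same sums and at −0.59 with skeletal muscle, whereas *Abcc9* stood at 0.55 with skeletal muscle. With the endothelial sum the values were 0.64 for *Pdgfrb*, 0.54 for *Cspg4*, 0.42 for *Higd1b* and −0.15 for *Rgs5*. They were 0.28 for *Abcc9*, 0.27 for *Notch3*, 0.16 for *Kcnj8* and 0.08 for *Ndufa4l2*. *Pdgfrb* and *Cspg4* also stood at 0.55 and 0.68 with smooth muscle and at 0.57 and 0.62 with Schwann cells and glia. The variation of *Pdgfrb* and *Cspg4* between pools of a stage thus ran with markers of several tissues, and that of *Rgs5* did not run with these.

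The genes nearest in pattern to *Rgs5* and *Higd1b* were sought among 16500 genes with a mean of at least 1 CPM, by the same correlation over 15 libraries. For *Rgs5* these were *AU021092* (0.94), *Morn2* (0.93), *Sec14l5* (0.92), *Kcnj16* (0.92) and *Cyp2a5* (0.92). For *Higd1b* they included *Sparcl1* (0.96), *Hras* (0.96), *Naaa* (0.96) and *Ecm2* (0.95). Ranked in the same way with the members left in, *Higd1b* was the nearest of 16507 genes to *Kcnj8*, *Kcnj8* the 8th nearest to *Higd1b*, and *Rgs5* the 11th nearest to *Kcnj8*. For *Ndufa4l2*, looked at after its values were seen, the nearest were *Dmp1* (0.99), a bone matrix gene, and *Bmp8a* (0.99), and its correlation with the fibroblast and mesenchyme sum was 0.90 over the libraries and 0.23 within stages.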

How the data were processed

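Per the labels, mRNA was extracted from dissected secondary palates, 3 embryos to a pool. The deposited table holds counts of fragments per gene, made by the authors with featureCounts 2.0.1 on the reverse strand with GENCODE M18 per the file headers, which also give each gene's length, deposited by the authors as another column in bases. Per the submitters' processing notes, cutadapt 3.4, HISAT2 2.2.1, Bowtie2 and SAMtools 1.12 were used with the mm10 genome, in roles not given there. The recorded command did not count fragments mapping to several places, so members with close relatives could be undercounted.

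Symbols came from GENCODE M21. Counts were filtered with filterByExpr (minimum count 10, 22151 genes), normalized with TMM factors and modelled with edgeR 4.0.16 (R 4.3.3, limma 3.58.1) with 1 coefficient per stage over 15 libraries. Quasi-likelihood F tests were adjusted by Benjamini-Hochberg over all tested genes, with a threshold of 0.05. The common biological coefficient of variation was 0.332, which with 21.5 to 69.0 M counts per library set the precision. Each standard error is the log2 change divided by the square root of its F value. Log2 CPM used a prior count of 2. The procedure was tested on simulated data.

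The members and the gene lists (13 lists) were chosen with earlier results of these data known. From each list were named the 2 genes past the threshold with the largest change whose higher stage mean was at least 5 CPM. Genes outside that rule are said to be so. A pair of genes that the naming rules select is not reported here. Alternatives were DESeq2 1.42.0, other scalings and filters, only the 6 libraries of a comparison, the replicate number as a block, and leaving out each library.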

Additional observations from a re-analysis of the deposited data

How the results depend on the processing

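Changing 1 choice at a time left most calls of the 8 genes in place, and no called fold change reversed. Of 40 fold changes (8 genes in 5 comparisons), 40 kept their side of the threshold with DESeq2's size factors, with upper-quartile scaling and without the filter, and 37 with DESeq2, where the 3 others passed in addition. Some fold changes that did not pass changed sign, such as *Abcc9* at P0 against E15.5 (0.47, and −0.12 without P0 replicate 2) and *Notch3* at E15.5 against E14.5 (−0.07, and 0.06 with upper-quartile scaling).

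The number of members called at E16.5 against E15.5 was 1, and 3 with DESeq2. It was 0 when a gene needed an average level of 1 CPM, which leaves out *Higd1b*, and 0 in edgeR with only the 6 libraries, where 6 members had an unadjusted p under 0.05. At P0 against E15.5 it was 2, and 1 with either of these settings. Leaving out 1 library gave 1 to 1 members at E15.5 against E14.5, 0 to 1 at E16.5 against E15.5, 0 to 0 at P0 against E16.5, 2 to 3 at P0 against E15.5 and 6 to 7 at P0 against E13.5.

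Over all genes, 312 were called at E16.5 against E15.5, 2056 with DESeq2 and 0 with only the 6 libraries (4267 at an unadjusted p under 0.05). At P0 against E16.5 the count was 78, then 667 with DESeq2, 25 without the filter and 0 with only the 6 libraries (1129 unadjusted). At P0 against E15.5 it was 5080, and 1809 with only the 6 libraries. Leaving out 1 library gave 2320 to 5816 genes at E15.5 against E14.5, 0 to 504 at E16.5 against E15.5 (the 0 without E15.5 replicate 2, with 3286 unadjusted), 10 to 216 at P0 against E16.5 and 2472 to 6001 at P0 against E15.5. The libraries that moved these counts by over 1.5 times were E14.5 replicates 1 and 2 and E15.5 replicates 2 and 3 in the first, all 6 in the second, all but P0 replicate 3 in the third, and the 3 of E15.5 in the fourth. The cause was not tested, beyond the smaller number of genes or libraries that a filter or subset itself imposes.

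The replicate numbers did not pair the libraries: 5 of 15 same-numbered pairs had a correlation of deviations over 0.1, with a range from −0.30 to 0.54. With the replicate number as a block, 35 genes were called at P0 against E16.5, and *Cspg4* at P0 against E13.5 had an adjusted p of 0.0528. At 3 counts or fewer per library, the E13.5 level of *Higd1b* is known only to its counting interval.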
